A study of Mus musculus with 40 samples.

Results

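The 10 DBA control libraries were set against the 10 C57 control libraries of a mouse study of the ventral tegmental area (VTA), with sex as a covariate, across all genes. These 20 libraries are all the control libraries among the 40 of the series, chosen by strain and treatment alone. The DBA controls were 5 males and 5 females of the strain labelled DBA, and the C57 controls were 5 males and 5 females of the strain labelled C57/Bl6, all adult. None of these mice had been through repeated cross-fostering (RCF), in which litters change adoptive mother daily from postnatal day 1 to 4. Each library was made from mRNA of VTA punches cut from frozen brain and read as single-end sequences of 75 nt. The substrain, litter, exact age and weight are not given in the labels, and nothing states whether each library is 1 animal, so p-values measure the spread between libraries.

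The VTA is a midbrain nucleus whose dopamine neurons project to the striatum and cortex, among GABA and glutamate neurons and glia. DBA and C57 mice are inbred strains that differ in coat colour, hearing, response to drugs of abuse and stress, and in the sequence of the genome. The mouse reference genome was built from C57BL/6J, so reads of DBA mice carry more mismatches to it than reads of C57 mice. What that does to the counts was not tested. In bulk tissue, fewer cells of a type and less RNA per cell cannot be told apart.

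The control libraries held 16913124 to 26106269 counts in DBA and 21603360 to 24985895 in C57. Of 55471 genes in the table, 17591 passed the filter on low counts and were tested. All levels below are CPM (counts scaled to library size) after TMM scaling, which sets library sizes from the bulk of the genes, and log2 fold changes are DBA over C57. One C57 library did not sit with the rest. Over 67 genes at least 8-fold higher in DBA than in C57 in the separate RCF libraries, the median position between the strains was 91.4% to 106% in the DBA controls, and -0.516% to 0.17% in 9 C57 controls. It was 23.6% in the library labelled C57 male 5, whose RNA was thus partly like that of the other strain, and results that rest on it are given with and without it. The 45 genes at least 8-fold lower in DBA separated it less well, at 48.7% against 11.9% to 46.3% in the other 9 C57 controls. Over the 29 of these left when the ranges of the strains also had to stay apart, it was at 42.2% against -6.41% to 20.3%. The first principal component, with 25.6% of the variance, separated the strains. DBA male 4, the shallowest library, stood apart on it and on the second, with 14.9%.

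**Figure D1:**
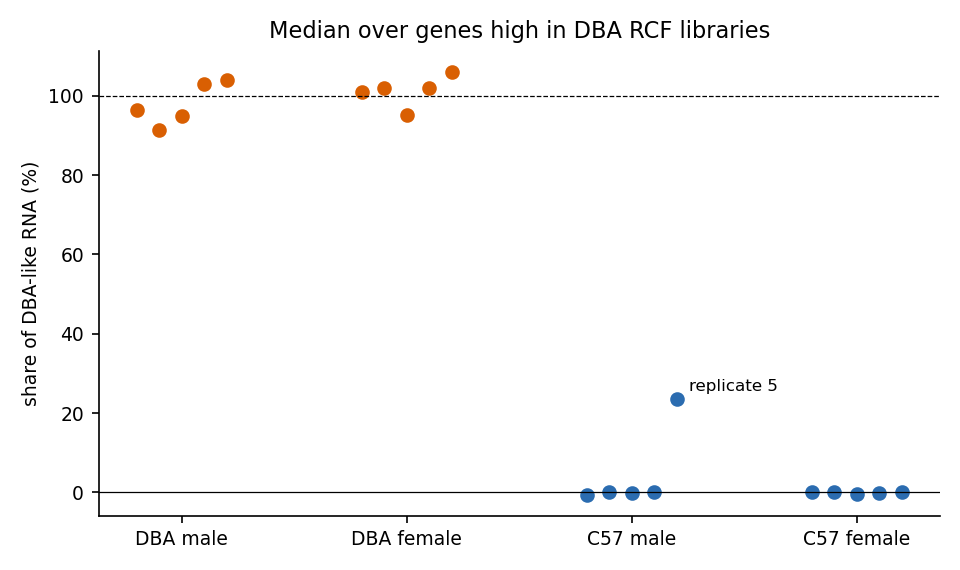
Share of DBA-like RNA in each control library (y axis, percent; 0 is the C57 and 100 the DBA mean of the RCF libraries), as the median over 67 genes; each point is a library, by strain and sex. C57 male replicate 5 lies at 23.6%, and the other 9 C57 libraries lie between -0.516% and 0.17%.

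The punches varied in what they held. Th, the rate-limiting enzyme of dopamine synthesis, had 3.08 to 1650 CPM in DBA (median 30.5) and 8.22 to 1090 CPM in C57 (median 67.5). Slc6a3, the dopamine transporter, had 0.5 to 2970 CPM in DBA (median 4.7) and 0.669 to 1687 CPM in C57 (median 51.4). Both strains thus held libraries with high and with nearly no dopamine neuron RNA, and their ranges overlapped almost fully. The high end was uneven, however. In DBA it rested on DBA male 3, as the next libraries had 178 CPM of Th and 336 CPM of Slc6a3. In C57, Th was at 1090, 829 and 556 CPM in C57 female 3, C57 male 3 and C57 female 4. Of 25 dopamine neuron markers tested, 0 passed the threshold in either direction by edgeR, DESeq2 or voom and 0 had an unadjusted p under 0.05, with a median log2 fold change of -0.53 beside 0.01 over all genes tested. Of all 17591 genes tested, 4059 had an unadjusted p under 0.05. For Th the log2 fold change was -0.92 (SE 1.31, adjusted p = 0.745), so a difference of several fold either way was not detectable. The mean log2 CPM of the list was 2.19 to 7.56 in DBA and 2.61 to 6.88 in C57. Forebrain markers were high in DBA female 3 (list mean 6.22) and in C57 males 1 and 5 (6.0 and 5.58), against 1.64 to 3.16 in the other DBA and 2.14 to 3.04 in the other C57 libraries. The part these markers play in the strain results below was not tested gene by gene. With the dopamine neuron and forebrain means as covariates, 1047 genes were called higher and 1037 lower.

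At an adjusted p under 0.05, 911 genes were higher in DBA (5.18% of those tested) and 1031 were lower (5.86%), together 1942 genes or 11%. At least a 2-fold change as well was seen for 329 higher (1.87%) and 357 lower genes (2.03%). For 210 genes (1.19%) every DBA library lay above every C57 library, and for 231 (1.31%) every DBA library lay below. Without C57 male 5, 886 genes were higher (5.04%) and 1018 lower (5.79%), of which 806 and 947 were the genes called with it. The ranges then stayed apart for 247 higher (1.40%) and 255 lower genes (1.45%). Of the called genes, 591 (30.4%) overlap another tested gene, as did 31.5% of all tested genes. The library kit keeps strand, but the strand setting of the counting is not given in the sources used here, so reads of overlapping genes may not be separated.

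**Figure D2:**
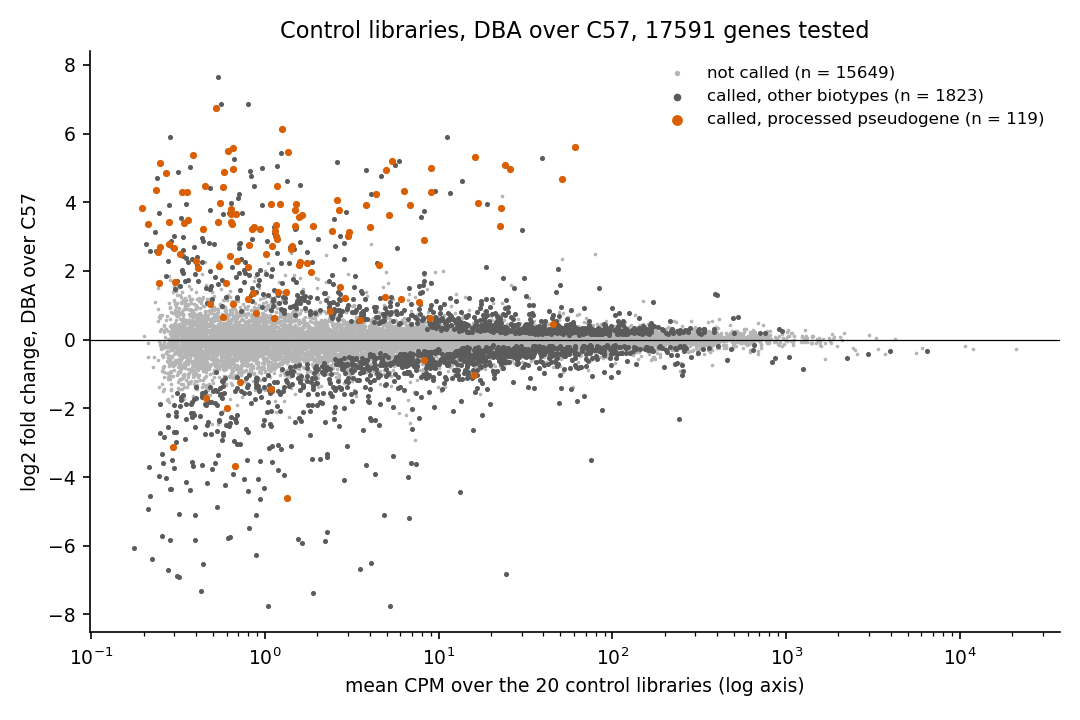
Log2 fold change, DBA over C57 (y axis), against the mean CPM over the 20 control libraries (x axis, log scale) for 17591 genes. Grey points were not called; dark points are called genes of other biotypes; orange points are the 119 called processed pseudogenes, of which 110 lie above 0 and 9 below.

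Several of the surest differences were at genes known for a variant between these strains. Wdfy1, a FYVE-domain protein of endosomes, had 57 to 90.3 CPM in DBA (median 79.9) and 14.0 to 29.4 CPM in C57 (median 17.4). The ranges did not overlap, and the highest C57 value was that of C57 male 5. The strains differed by 2.04 on the log2 scale (SE 0.12, adjusted p = 5.3e-11) and by 2.13 without that library. Reads of Mrpl44, which overlaps Wdfy1 on the other strand, may not be separated from it. Alad, the enzyme that joins 2 molecules of aminolevulinate in haem synthesis and is known for extra gene copies in DBA, had 51.5 to 91.7 CPM in DBA (median 78.7) and 20 to 35.3 CPM in C57 (median 24.3). Every DBA library was above every C57 library, and the strains differed by 1.58 on the log2 scale (SE 0.11, adjusted p = 3.12e-09).

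Glo1, the glyoxalase that detoxifies methylglyoxal, lies in a segment known to be duplicated in DBA. It had 111 to 151 CPM in DBA (median 129) and 60.4 to 94.1 CPM in C57 (median 66.4). C57 male 5 was again the highest C57 library, and the other 9 reached 71.7 CPM. The log2 fold change was 0.91 (SE 0.07, adjusted p = 1.07e-08). Next to Glo1, Dnah8, a dynein of cilia that overlaps it on the other strand, and Glp1r, the receptor of glucagon-like peptide 1, were also called higher, at 1.32 and 1.40. In the RCF libraries Dnah8 was higher again (2.19, adjusted p = 8.69e-08), whereas Glp1r was at -0.05 (adjusted p = 0.968). Gabra2, the alpha2 subunit of GABA-A receptors, is known for a noncoding variant that lowers it in C57BL/6J. It had 63.1 to 203 CPM in DBA (median 124) and 20.6 to 76.6 CPM in C57 (median 37.1). Only the lowest DBA library, at 63.1 CPM, fell within the C57 range. The log2 fold change was 1.51 (SE 0.23, adjusted p = 9.32e-05), and 1.67 without C57 male 5.

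Among the known variants, Pttg1, Gpnmb, Srp54a and Mpdz were lower in DBA. Pttg1, securin, an inhibitor of the protease separase, had 2.29 to 6.15 CPM in DBA (median 4.54) and 23.8 to 29.6 CPM in C57 (median 27.3). The groups were far apart, at -2.63 on the log2 scale (SE 0.13, adjusted p = 7.3e-12). Gpnmb, a glycoprotein of melanosomes and phagocytes with a premature stop in DBA/2J, had 0 to 0.253 CPM in DBA (median 0.0219) and 0.711 to 2.52 CPM in C57 (median 1.49). Over the 10 libraries of each strain that is 15 counts in DBA and 358 in C57. Mpdz, a scaffold protein with PDZ domains, was at -0.31 (adjusted p = 0.0258) and lost its call without C57 female 3, DBA female 2 or DBA female 5.

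The rest of the list did not pass the threshold. Of its 26 genes, 18 were tested, 4 were higher (22.2%, beside 5.18% of all genes), 5 lower (27.8%, beside 5.86%) and 9 not called, with a median log2 fold change of -0.05. The list was chosen with earlier results of these data known, so these shares are no test. Myo5a, the motor mutated in the dilute coat of DBA, had 268 to 475 CPM in DBA and 365 to 636 CPM in C57 (log2 fold change -0.24, adjusted p = 0.206). Kcnj9, a potassium channel subunit studied for drug withdrawal in these strains, had 54.6 to 230.1 CPM in DBA and 58.1 to 155 CPM in C57 (0.10, adjusted p = 0.856). Ide, Cdh23, Cyfip2, Ptprn2, Ahr, Tyrp1 and Cap1 had adjusted p-values of 0.193 to 0.956. Below the filter, Nnt had at most 7 counts in a DBA library and 25 in a C57 library (the main gene model), Hc at most 47 and 17, and Klrd1 at most 1 and 7.

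Beyond the known variants, the called genes with the smallest p-values that were higher in DBA span many functions. Hddc3, a nucleotide hydrolase, had 37.5 to 59.3 CPM in DBA (median 48.5) and 11.8 to 17.7 CPM in C57 (median 13.6). It had the smallest p of all genes higher in DBA that the naming rule admits, with 1.78 on the log2 scale (SE 0.10, adjusted p = 3.42e-11). It overlaps Man2a2 on the other strand. Scg5, the 7B2 chaperone of prohormone convertase, had 446 to 661 CPM in DBA (median 559) and 186 to 304 CPM in C57 (median 219). No DBA library came near the C57 range, with a log2 difference of 1.3 at SE 0.08 (adjusted p = 2.73e-10). Fmo2, a flavin monooxygenase, Mrps14 of the mitochondrial ribosome, Fam71e1, Pla2g4e and Mroh7 were higher at 2.67, 0.77, 1.21, 1.80 and 2.10. Stab2, a scavenger receptor for hyaluronan, varied more, with 14.0 to 193 CPM in DBA (median 70.5) and 0.363 to 12.9 CPM in C57 (median 0.957). Its highest DBA library was DBA male 4 and its highest C57 library C57 male 5, and the other C57 libraries reached 1.7 CPM. The log2 fold change was 5.30 (SE 0.58, adjusted p = 2.92e-06), and 6.22 without C57 male 5. Card10, a CARMA scaffold protein, had 14.2 to 46.9 CPM in DBA and 9.94 to 20.9 CPM in C57 (1.49, adjusted p = 3.58e-06).

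**Figure D3:**
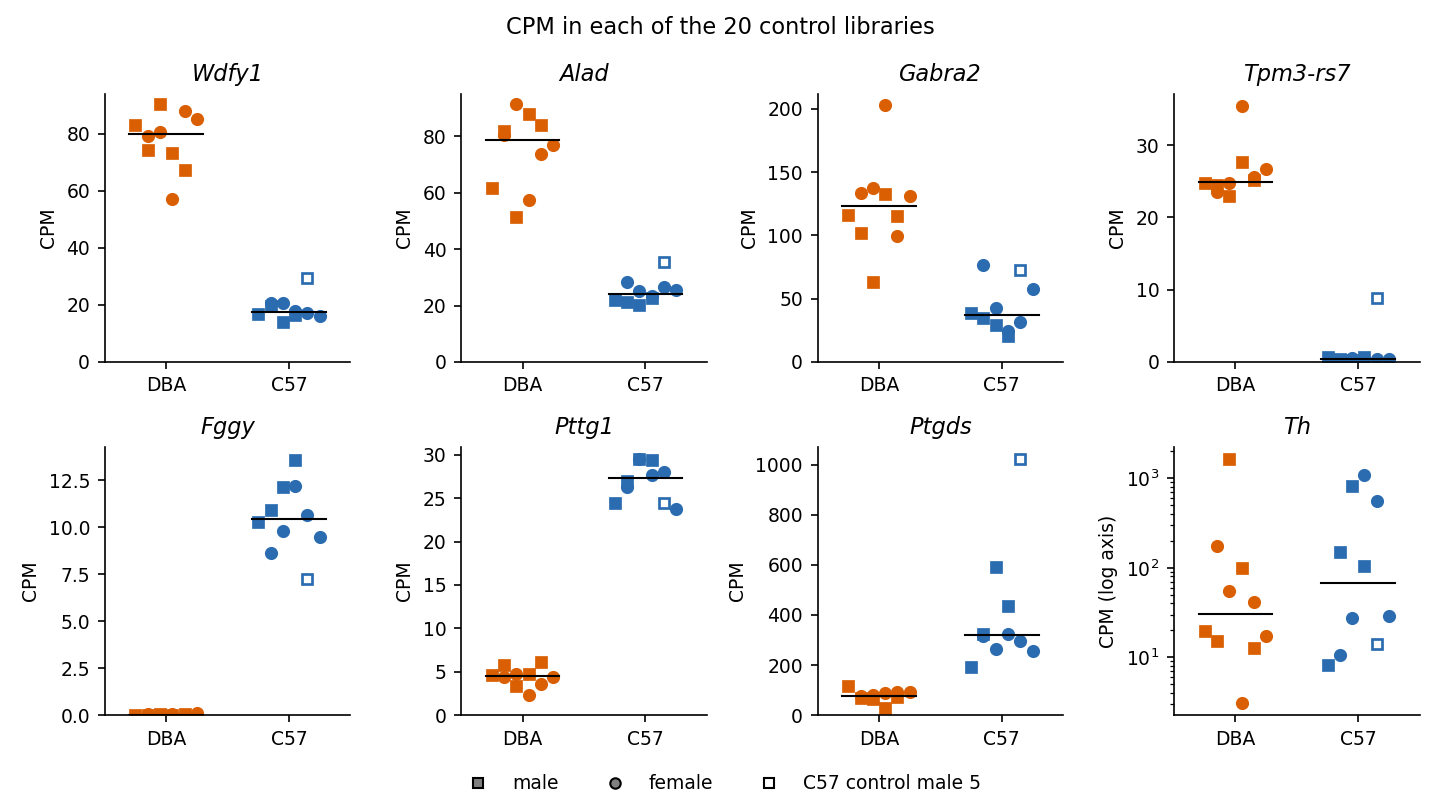
CPM (y axis, linear from 0 except log for Th) of 8 genes in each of the 20 control libraries, DBA left and C57 right; squares are males, circles females, the open square is C57 male 5 and the bar is the median. Wdfy1, Alad and Tpm3-rs7 are higher in every DBA library, Fggy, Pttg1 and Ptgds lower in every DBA library, Gabra2 overlaps at 1 DBA library, and Th overlaps throughout.

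Among genes lower in DBA, several were close to absent there. Fggy, a carbohydrate kinase, had 0 to 0.127 CPM in DBA (median 0.0219) and 7.25 to 13.6 CPM in C57 (median 10.5), with the lowest C57 value in C57 male 5. The summed counts were 10 in DBA and 2487 in C57, a C57 over DBA ratio of 242 after scaling to library size (95% exact interval 131 to 506, for counting error only). Zfp970, a zinc finger gene with close relatives, had 0 to 0.155 CPM in DBA (median 0.0434) and 4.52 to 9.44 CPM in C57 (median 7.07). Trim12a, of the antiviral TRIM family, had 1 count in 10 DBA libraries and 496 in 10 C57 libraries (ratio 483, 95% exact interval 86.3 to 19119). Nat8f4, an N-acetyltransferase-like gene, had 0.526 to 2.05 CPM in DBA (median 0.96) and 8.84 to 14.7 CPM in C57 (median 13.1). None of these ranges overlapped.

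Larger levels also differed. Myo7a, an unconventional myosin of sensory hair cells, had 0.351 to 4.53 CPM in DBA (median 1.01) and 16.4 to 29.8 CPM in C57 (median 25.3). DBA male 4 was highest in DBA and C57 male 5 lowest in C57, and they still did not meet (log2 fold change -4.44, SE 0.34, adjusted p = 1.17e-08). Ptgds, the prostaglandin D2 synthase made by meninges, choroid plexus and oligodendrocytes, had 26.7 to 115 CPM in DBA (median 78.4) and 194 to 1022 CPM in C57 (median 319). Every DBA library was below every C57 library, and C57 male 5 held the highest value. The log2 fold change was -2.32 (SE 0.29, adjusted p = 9.72e-06), and -2.10 without C57 male 5. Tceanc2, Hjurp, Arhgef19 and Etnppl, which breaks down phosphoethanolamine, were lower at -1.80, -1.64, -1.51 and -1.45. Gfap, the intermediate filament of astrocytes, had 11.7 to 107 CPM in DBA (median 25.0) and 17.4 to 563 CPM in C57 (median 86.1). The groups overlapped, and the call (-2.03, adjusted p = 0.026) was lost without C57 male 3 (-1.56, adjusted p = 0.0809) or without C57 female 3 (-1.59, adjusted p = 0.0781).

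Processed pseudogenes, intronless copies of mRNAs put back into the genome, were called far more often in 1 direction than other genes. Of 452 tested, 110 were higher in DBA (24.3%) and 9 lower (1.99%), against 4.58% and 5.81% of 14795 protein-coding genes. Of the 110, 106 were also called higher in DBA in the RCF libraries. Many copies match their parent gene over whole reads. The stretches below are 75 nt of coding sequence of 3 parents called lower in DBA and of the copy called higher, from the GENCODE M21 transcripts, 5′ to 3′. They are shown because a read of this length differs at 1 base, in capitals.
Cox7a2l: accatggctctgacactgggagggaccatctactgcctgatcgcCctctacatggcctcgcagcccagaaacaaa
Gm6969: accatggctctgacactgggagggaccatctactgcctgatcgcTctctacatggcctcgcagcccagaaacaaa
Rpl29: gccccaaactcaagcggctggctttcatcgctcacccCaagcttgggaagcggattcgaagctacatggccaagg
Gm8210: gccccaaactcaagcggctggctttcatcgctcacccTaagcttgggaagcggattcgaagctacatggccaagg
Fabp5: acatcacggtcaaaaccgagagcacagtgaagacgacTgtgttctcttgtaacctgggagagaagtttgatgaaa
Gm6166: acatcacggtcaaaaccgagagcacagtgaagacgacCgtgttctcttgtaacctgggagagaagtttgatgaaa
On GRCm38 they lie at chr17:83502606-83502680 (minus strand, exon 3) and chr12:24638672-24638746 (minus strand) for Cox7a2l and Gm6969. For Rpl29 and Gm8210 they lie at chr9:106431229-106431303 (plus strand, exon 4) and chr1:43189418-43189492 (plus strand). For Fabp5 and Gm6166 they lie at chr3:10015043-10015117 (plus strand, exon 2) and chr9:57484114-57484188 (plus strand). Of all 75-nt windows of the copy, 57.1% for Gm6969, 49.1% for Gm8210 and 32.8% for Gm6166 occur without a change in the parent transcript, where a read cannot be assigned by its sequence.

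Cox7a2l, an assembly factor of respiratory supercomplexes, had the smallest p of all protein-coding genes. It had 21.1 to 33.1 CPM in DBA (median 29.8) and 87.8 to 113 CPM in C57 (median 96.5), a log2 difference of -1.79 (SE 0.07, adjusted p = 1.17e-12). Its copy Gm6969 had 13.2 to 21.8 CPM in DBA (median 17.0) and 0.237 to 4.39 CPM in C57 (median 0.601). The parent was thus low where the copy was high, in libraries of both sexes. With the counts of both summed before the fit, the log2 fold change was -1.11 (adjusted p = 2.91e-10). Fabp5, a fatty acid binding protein, had 17.4 to 25.1 CPM in DBA (median 21.6) and 61.3 to 93.8 CPM in C57 (median 78.7). Gm6166, 98.3% identical to it over 409 nt, had 24.2 to 38.2 CPM in DBA (median 31.0) and 0.158 to 6.27 CPM in C57 (median 0.346). On average Fabp5 was 56.0 CPM lower in DBA and its copy 30.5 CPM higher. Its log2 fold change was -1.85 alone and -0.56 summed (adjusted p = 0.000184). Rpl29, a ribosomal protein, had 23.8 to 32.5 CPM in DBA (median 27.5) and 64.3 to 81.4 CPM in C57 (median 74.6). It was at -1.42 alone and at -0.89 when summed with its 6 tested copies.

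Over all such pairs the parents leaned lower. The 103 higher pseudogenes with a tested parent map to 92 parents, each matched over 75 nt or more at an identity no lower than 90%. Of these, 37 were called lower in DBA (40.2%, beside 5.86% of all genes tested) and 7 higher, with a median log2 fold change of -0.17. The 7 include Eno1b, the best protein-coding match of Gm4735, which is itself a copy of Eno1. Of 162 parents of the other tested pseudogenes, 13 were called lower (8.02%) and 6 higher, with a median of -0.02. With the counts of gene and copies summed, 32 of the 37 were still called lower, 10 of the 92 were called higher, and the median was -0.11. Among those 92, Srp9 of the signal recognition particle, Scoc, the proton pump subunit Atp6v0c and the ribosomal stalk gene Rplp0 were at -1.36, -1.07, -1.02 and -0.94 alone, and at -1.02, -0.99, -0.77 and -0.73 summed. Gapdh, often used as a reference gene, was at -0.64 alone and -0.37 summed with 55 tested copies, of which 5 were called higher. Psmb5, a proteasome subunit, was called lower alone (-0.31, adjusted p = 0.00433) and not when summed (0.06, adjusted p = 0.629).

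**Figure D4:**
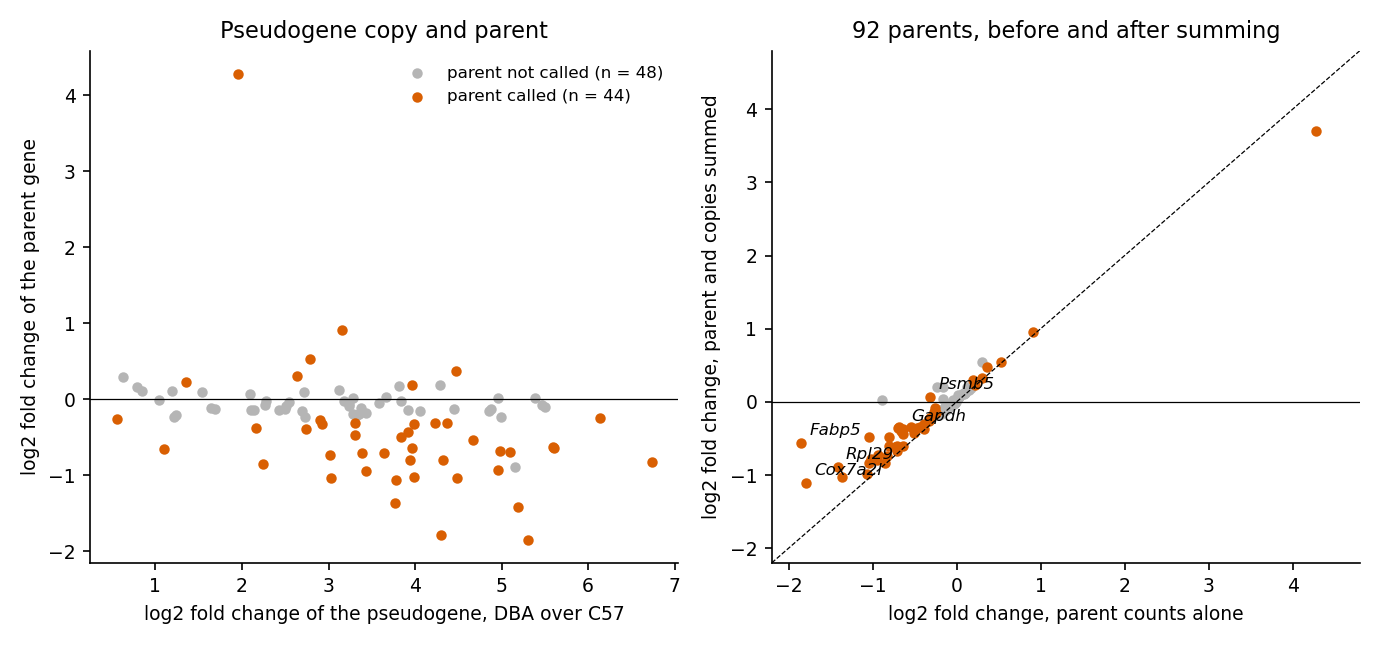
Left: log2 fold change, DBA over C57, of 92 parent genes (y axis) against their pseudogene copy called higher in DBA (x axis). Right: the same parents with their counts and those of their copies summed (y axis) against the parent alone (x axis); orange points are parents called alone and the dashed line marks equal values. Cox7a2l was at -1.79 alone and -1.11 summed, Fabp5 at -1.85 and -0.56.

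Some gene copies that carry a name of their own were also high in DBA. Eno1b, an intronless copy of the glycolytic enzyme Eno1, had 19.7 to 23.7 CPM in DBA (median 22.3) and 0.164 to 6.36 CPM in C57 (median 0.726). Eno1 had 169 to 205 CPM in DBA and 270 to 365 CPM in C57. Eno1b was higher at 4.28 (adjusted p = 1.24e-06) and Eno1 lower at -0.74 (adjusted p = 2.35e-09). Tpm3-rs7, a copy of the tropomyosin gene Tpm3, had 23 to 35.4 CPM in DBA (median 25.0) and 0.198 to 8.91 CPM in C57 (median 0.439), while Tpm3 was lower at -0.75. Hmga1b, a copy of the chromatin protein gene Hmga1, had 13.8 to 21.9 CPM in DBA (median 18) and 0.478 to 3.89 CPM in C57 (median 0.602), while Hmga1 was lower at -0.44. In all of them the highest C57 value was that of C57 male 5. Without it the log2 fold changes were 4.91 for Eno1b, 5.86 for Tpm3-rs7 and 4.87 for Hmga1b. Tuba1c, an alpha-tubulin, had 11.2 to 19.2 CPM in DBA (median 15) and 0.78 to 3.31 CPM in C57 (median 0.913), with Tuba1a lower at -0.44 and Tuba1b at -0.09 (adjusted p = 0.54). Myh6, the alpha heavy chain of cardiac myosin with a stretch shared with Myh7, had 3.17 to 11.7 CPM in DBA and 0 to 0.716 CPM in C57. Near-identical copies (95% over 75 nt or more) exist for 319 of the 911 higher genes (35.0%) and 352 of the 1031 lower genes (34.1%), against 25.4% of all genes tested. Among protein-coding genes the shares were 24.3% of higher and 32.9% of lower calls, against 23.7% of those tested. The values of genes with a copy are uncertain where reads could be split between copies.

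Most of the red blood cell transcripts tested were lower in DBA. Of 5 blood genes, 4 were lower (80%, beside 5.86% of all genes tested) and 0 higher, and the median log2 fold change was -1.27. Hba-a2, an alpha-globin gene, had 0 to 0.164 CPM in DBA (median 0) and 0.606 to 3.6 CPM in C57 (median 1.63), which is 4 counts in DBA and 419 in C57 in all. Hba-a1, its near-identical neighbour, had 0.175 to 3.3 CPM in DBA and 1.56 to 10.7 CPM in C57 and did not pass (-0.98, adjusted p = 0.103). Hbb-bt and Hbb-bs, the adult beta-globins of the C57 haplotype, had log2 fold changes of -2.12 (adjusted p = 6.39e-05) and -1.27 (adjusted p = 0.00546). Alas2, the erythroid enzyme of haem synthesis, was at -1.25 (adjusted p = 0.0303), and at -1.13 without C57 male 5 (adjusted p = 0.0597), -1.14 without C57 female 3 (adjusted p = 0.0638) and -1.22 without DBA male 1 (adjusted p = 0.0504). The mean log2 CPM of the 5 genes was -1.36 to 0.856 in DBA and 1.2 to 3.18 in C57, with no overlap. C57 male 5 was the highest.

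Markers of vessels, meninges and microglia were called lower or not at all. Of 12 endothelial and mural genes, 4 were lower (33.3%, beside 5.86% of all genes) and 0 higher, with a median of -0.32. Pdgfrb, the platelet-derived growth factor receptor of pericytes, had 17.4 to 30.9 CPM in DBA and 29.7 to 41.7 CPM in C57 (-0.51, adjusted p = 0.00078). Cldn5, the tight junction protein of brain endothelium, had 11.1 to 24.4 CPM in DBA and 23.2 to 46.1 CPM in C57 (-0.64, adjusted p = 0.00225). Of 9 ependymal, meningeal and choroid plexus genes, 3 were lower, 0 higher, with a median of -1.12. They were Foxj1, the regulator of motile cilia (-1.25, adjusted p = 0.00364), and the collagens Col1a2 and Col1a1 (-1.10 and -1.13). The mean level of each list overlapped between the strains: 1.27 to 2.25 in DBA and 1.48 to 3.73 in C57 for the ependymal and meningeal list, and 3.97 to 5.04 in DBA and 4.43 to 5.41 in C57 for the vascular list, in mean log2 CPM. Their part in the lower blood, Ptgds and complement values was not tested. Pecam1 and Flt1, the other 2 vascular genes called, lost their calls in 9 and 13 of the 20 fits that leave out a library, and Col1a1 without C57 male 3 (-0.88, adjusted p = 0.052) or C57 female 3 (-0.96, adjusted p = 0.0575). Of 13 microglial genes, 3 were lower (Siglech, Tyrobp and Trem2, at -0.43, -0.47 and -0.40), 0 higher, and the median was -0.14. Of these, Trem2 lost its call in 14 of the 20 fits that leave out a library. Of 12 astrocyte genes, Gfap, Aqp4 and Sox9 were lower and Gja1 higher, with a median of -0.06, though Gja1 and Sox9 lost their calls in 14 and 8 of the fits that leave out a library. Aqp4 lost its call without C57 male 3, C57 female 3 or DBA male 5, at adjusted p-values up to 0.068.

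Several complement genes were lower in DBA. Of 18 tested, 5 were lower (27.8%, beside 5.86% of all genes), 1 was higher (5.56%, beside 5.18%) and 12 were not called, with a median of -0.35. C1qc, a chain of the first complement component, had 11.8 to 17.1 CPM in DBA (median 13.9) and 19.9 to 38.2 CPM in C57 (median 26.7). The ranges did not overlap (-0.91, SE 0.10, adjusted p = 1.12e-06). C1qb was at -0.90 (adjusted p = 5.11e-06) and C1qa, from the same gene cluster, at -0.38 (adjusted p = 0.0164). Cd59a, which blocks the membrane attack complex, was higher at 0.73.

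In the major histocompatibility complex, DBA carries the d and C57 the b haplotype. A list of its genes and of other genes of antigen presentation, such as B2m, which lies outside it, held 22 tested genes. Of these, 2 were higher (9.09%, beside 5.18% of all genes), 6 lower (27.3%, beside 5.86%) and 14 not called, with a median of -0.14. H2-T24 had 3.18 to 6.71 CPM in DBA (median 4.45) and 1.3 to 3.09 CPM in C57 (median 1.72), with no overlap (1.19, adjusted p = 0.000108). H2-T22 had 4.4 to 13.0 CPM in DBA (median 9.11) and 13.9 to 25.0 CPM in C57 (median 20.4), also with no overlap (-1.11, adjusted p = 1.88e-05). H2-T10, 1495 nt of which match H2-T22, is outside the list and was higher at 1.3, so reads may be split between them. B2m, the light chain of class I molecules, was lower at -0.46 (adjusted p = 0.00239), while H2-K1 and H2-D1, the classical class I genes, were at -0.07 and 0.02 (adjusted p = 0.785 and 0.942).

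Among 49 enzymes of detoxification tested, 4 were higher (8.16%, beside 5.18% of all genes) and 7 lower (14.3%, beside 5.86%), with a median of -0.05. Gsr, glutathione reductase, had 38.7 to 49.3 CPM in DBA (median 43.1) and 21.5 to 36.4 CPM in C57 (median 25.6), with C57 male 5 highest among C57 (0.73, SE 0.07, adjusted p = 4.73e-07). Gstz1 and Gstt2, glutathione transferases, were higher at 0.29 and 0.63. Aldh7a1, an aldehyde dehydrogenase, had 34.9 to 53.9 CPM in DBA (median 49.3) and 76.5 to 93.7 CPM in C57 (median 83.6), with DBA male 4 the lowest and Phax overlapping on the other strand (-0.81, SE 0.07, adjusted p = 2.01e-08). The epoxide hydrolases Ephx1 and Ephx2 were lower at -0.72 and -0.70.

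For the stress axis, which the fostering design addresses, 4 of 19 genes were higher (21.1%, beside 5.18% of all genes) and 2 lower (10.5%, beside 5.86%), with a median of 0.16. Hsd11b1, which regenerates corticosterone in cells, had 2.57 to 14.1 CPM in DBA (median 11.1) and 13.5 to 29.8 CPM in C57 (median 18.4), meeting at the edge and with Lamb3 overlapping on the other strand (-1.03, SE 0.22, adjusted p = 0.00377). Plin4, Pdk4 and Sgk1, all known to respond to glucocorticoids, were higher at 0.97, 0.64 and 0.62. Fkbp5, a co-chaperone of the glucocorticoid receptor, had 20.4 to 36.7 CPM in DBA (median 24.2) and 14.7 to 27.3 CPM in C57 (median 19.5). It was called higher at 0.35 (SE 0.11, adjusted p = 0.0451), but not in 12 of the 20 fits that leave out a library, where adjusted p reached 0.0909. In the RCF libraries Fkbp5 was at -0.05 and Sgk1 at -0.31, and neither was called. Plin4 had 2.51 to 7.71 CPM in DBA and 2.18 to 28.3 CPM in C57 there, so its highest value was in C57. Pdk4 had 7.61 to 17.5 CPM in DBA and 5.04 to 15.2 CPM in C57 in the RCF libraries, also with overlap. Nr3c1, the glucocorticoid receptor, was at 0.16 (adjusted p = 0.558) and Bdnf, a neuronal growth factor, was lower at -0.50 (adjusted p = 0.0196).

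In the lists of neuronal signalling few genes were called, beside 11% of all genes tested, and whether these lists differ from all genes was not tested. Of 48 potassium channel, 24 glutamate receptor, 27 synaptic vesicle, 17 GABA neuron and 15 forebrain and glutamate neuron genes tested, 0 were called in these lists by edgeR. At an unadjusted p under 0.05 there were 4, 3, 1, 1 and 0, DESeq2 called 0, 1, 0, 0 and 0, and voom 0 in each. Of all 17591 genes tested, 4059 had an unadjusted p under 0.05 by edgeR, DESeq2 called 2387 and voom 1933. Their medians were 0.05, 0.10, 0.07, 0.03 and -0.07. Of 16 GABA-A receptor genes, Gabra2 and Gabre were higher (Gabre at 1.12, adjusted p = 0.0114), with a median of 0.19. Of 14 dopamine receptor and turnover genes 0 were called higher and 1 lower. Drd2, the D2 receptor, was at -0.04 (SE 0.62, adjusted p = 0.978). Of 22 nicotinic, opioid and cannabinoid genes only Chrna2 was called, at -5.10 (adjusted p = 0.0317). It rested on few libraries: 0.0382 to 1.91 CPM in DBA and 0 to 74.8 CPM in C57 (median 0.19). Without C57 male 3 it was at -2.43 (adjusted p = 0.448), without C57 female 3 at -4.02 (adjusted p = 0.132), and it was lost in 9 of the 20 fits that leave out a library. Oprm1, the mu opioid receptor, was at 0.20 (adjusted p = 0.812). Fos, the immediate early gene, was at -0.46 (adjusted p = 0.453), and Dbp, a clock output gene, was the 1 of 18 circadian genes called (0.35, adjusted p = 0.0103). Jund was the 1 of 17 immediate early genes called (higher), Gbp3 the 1 of 28 interferon response genes, Cspg4 the 1 of 16 oligodendrocyte lineage genes (lost in 7 of the 20 fits that leave out a library) and Gpnmb the 1 of 10 pigment genes (all lower), and of 13 hypothalamic and 4 hindbrain genes 0 were called (1 each at an unadjusted p under 0.05, and 1 and 0 by DESeq2, 0 by voom).

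Called genes lay on every autosome and the X, often side by side, with 0 of 6 genes called on the Y. Among the autosomes and the X, the share called ran from 6.27% of genes on the X and 7.03% on chromosome 10 to 14.1% on chromosome 7 and 14.3% on chromosome 17. Of called genes, 32.8% had a called gene as the next tested gene on either side, against 18.8% of genes not called. On chromosome 12 from 20664517 to 20921262, all 5 genes of a run were lower, among them the zinc finger gene Zfp125, with 4 counts in DBA and 883 in C57. Further along chromosome 12, from 104146382 to 104414329, 5 genes of the Serpina3 cluster of protease inhibitors were all higher. Serpina3n, the member abundant in brain, had 41.7 to 82.6 CPM in DBA (median 71.6) and 20.2 to 32.7 CPM in C57 (median 25.5), with no overlap (1.39, SE 0.12, adjusted p = 2.91e-08). Serpina3m and Serpina3h, related in sequence, were higher at 5.45 and 5.26 from levels of at most 0.492 and 0.212 CPM in C57. On chromosome 7 from 103812524 to 104336909, Hbb-bt, Hbb-bs, Trim34a and Trim12a were lower and Trim34b higher. On chromosome 13 from 23681467 to 23740367, Hist1h2ac, Hist1h2bc, Hfe, a regulator of iron uptake, and Hist1h1c were lower by 0.61 to 1.66 on the log2 scale. Of 20 mitochondrial genes tested, 5 were lower (25%, beside 5.86% of all genes tested) and 0 higher. Lower were mt-Nd3 at -1.21, the 2 rRNAs mt-Rnr1 and mt-Rnr2 at -0.42 and -0.34, mt-Nd6 at -0.42 and mt-Nd5 at -0.33. These runs and mitochondrial genes were picked after their values were seen.

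Within the sexes, 799 genes were higher (4.54%) and 767 lower (4.36%) in DBA females against C57 females, and 295 were higher (1.68%) and 293 lower (1.67%) in DBA males against C57 males. The unequal counts are no test of a difference between the sexes. The interaction of strain and sex was called for 2 genes (0.0114%) by edgeR. DESeq2 called 103 with a larger and 109 with a smaller strain effect in males, and 2935 genes (16.7%) had an unadjusted p under 0.05 by edgeR, where that threshold gives 5% with no effect. The libraries with high forebrain markers were unevenly placed for this contrast: DBA female 3 and C57 males 1 and 5 (list means 6.22, 6.0 and 5.58). A gene high in these libraries shows a smaller strain effect in males. Their part in these counts was not tested. Gm2451, a processed pseudogene on chromosome 3 with many near-identical relatives, had 17.5 to 20.7 CPM in the 5 DBA females and 0.218 to 0.69 CPM in the 5 DBA males. In C57 it had 0.158 to 0.534 CPM in females and 0.191 to 0.347 CPM in males. Its strain effect was thus 5.36 smaller in males on the log2 scale (SE 0.47, adjusted p = 5.15e-06). In the 20 RCF libraries Gm2451 had 0.194 to 0.516 CPM in DBA and 0.132 to 0.679 CPM in C57, so the DBA control females were the only group of the series above 1 CPM. Gm49192, a long noncoding RNA on chromosome 14, had 4.77 to 9.22 CPM in DBA males and 28.0 to 57.9 CPM in DBA females, against 16.7 to 39.8 CPM in C57 males and 24.3 to 33.5 CPM in C57 females. Its strain effect differed by -2.47 between males and females (adjusted p = 0.0081).

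The strain comparison was repeated in the 20 RCF libraries, 10 DBA and 10 C57, none of which entered the control fit. There 2460 genes were higher in DBA (14.0%) and 2736 lower (15.6%). Punch content was also uneven between the strains in this set. Th had 306 to 1270 CPM in C57 females 1, 2, 3 and 5 and C57 males 1, 2 and 3, and 0.727 to 38.5 CPM in the other C57 libraries. In DBA it had 942 CPM in female 5 and at most 82.6 CPM in the others. The part of this in the RCF calls and in the shared signs was not tested. Of the 911 genes higher among controls, 727 (79.8%) were called higher again, and of the 1031 lower genes 874 (84.8%) were called lower again. These are 29.6% and 31.9% of the calls among RCF libraries. The sign was shared by 98.5% of the called genes and by 75.3% of all genes tested. Only Mmp14, a matrix metalloproteinase, was called both ways: it was lower among controls (-0.39, adjusted p = 0.0467) and higher among RCF libraries (0.26, adjusted p = 0.0433).

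**Figure D5:**
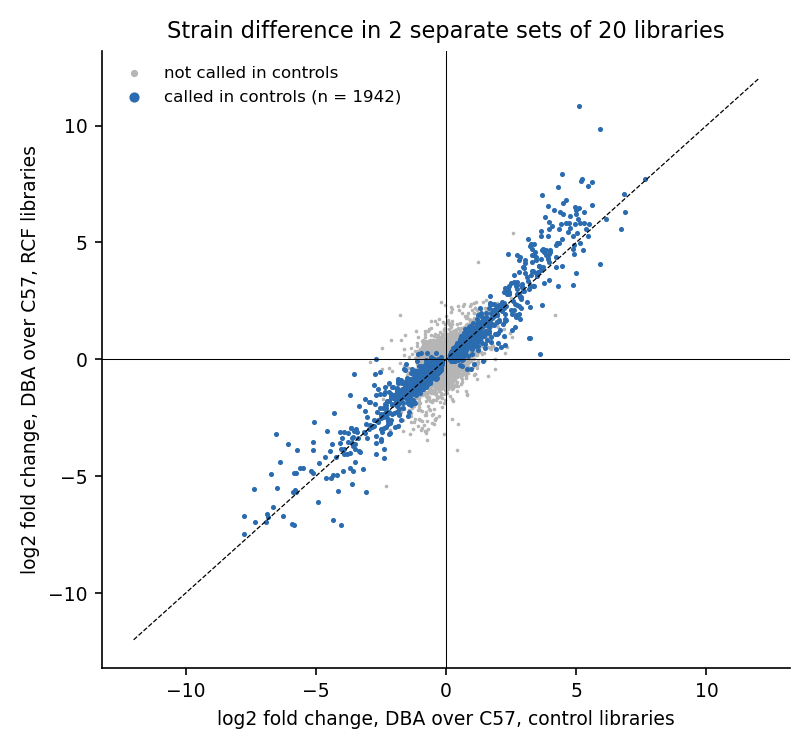
Log2 fold change, DBA over C57, in the 20 RCF libraries (y axis) against that in the 20 control libraries (x axis) for 17591 genes; blue points are the 1942 genes called among controls and the dashed line marks equal values. Of the called genes, 98.5% share their sign.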

How the data were processed

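Gene counts of the authors' deposited table, 1 column per library and whole numbers, were used as deposited. The tools and build in the submitters' processing notes are FastQC, cutadapt 1.11, bcl2fastq 2.20 and GRCm38 (mm10); the sources used here do not give the aligner, the counter, its strand setting or the annotation release. Columns were matched to samples by name, and 0 columns were left unused. Gene IDs were matched to GENCODE M21, 54573 with and 657 without their version; 241 had no symbol.

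The 20 control libraries were tested in R 4.3.3 with edgeR 4.0.16 (filterByExpr over the 4 control groups, TMM, robust quasi-likelihood F test, terms for sex and strain, Benjamini-Hochberg over all 17591 genes, called at 0.05). The SE is the log2 fold change divided by the root of F. TMM factors were 0.931 to 1.09 and the median SE was 0.135. Counts were simulated for the strain comparison with 17591 genes, 200 of them changed. In these, 29.9% of 1.5-fold, 80.6% of 2-fold and 100% of 4-fold changes were recovered, with 3 false calls. The simulated spread followed the mean level of a gene alone. Uneven punch content and libraries that stand apart were not simulated, so these figures do not hold for genes that vary as Th does. Library pairs within a group differed by more than counting noise, with a chi-square of 8.92 to 132 for each degree of freedom.

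Alternatives used DESeq2 1.42.0, limma 3.58.1 (voom), RLE scaling, no filter, all 40 libraries, covariates, each sex, a replicate block and each library left out. Copies were found with blastn 2.17.0+ between transcripts. Named genes are the 15 with the smallest p and, among protein-coding genes of at least 20 CPM in the higher strain, the 10 with the largest change in each direction, all tested genes of the strain variant list, up to 4 called members of every other list by p, 8 fixed genes, and 5 genes per direction of the interaction; other genes were named as copies, parents, neighbours or list members after their values were seen. The comparison and the lists were chosen with earlier results of these data known. Some called genes counted in the lists are not reported here by name.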

Additional observations from a re-analysis of the deposited data

Results flagged for a closer look

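In 25 of 80 sets of 10 libraries (39 genes and the DBA RNA share, each strain by itself), 1 library stood apart from the rest by its gap to the next. The cutoff gives about 1 in 20 for independent, normally distributed values. Several of these sets are skewed or hold few counts, and they share the same libraries, so the count is no test against chance. C57 male 5 stood apart 11 times. It was highest among C57 for Wdfy1 (29.4 CPM), Glo1 (94.1), Tuba1c (3.31), Hmga1b (3.89), Stab2 (12.9), Tpm3-rs7 (8.91), Eno1b (6.36), Gsr (36.4) and Ptgds (1022), lowest for Myo7a (16.4 CPM), and had a DBA RNA share of 23.6%. Except for Ptgds, these values lie toward the DBA level.

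DBA male 4 stood apart 5 times, highest among DBA for Stab2 (193 CPM), Myo7a (4.53), Hba-a2 (0.164) and Chrna2 (1.91) and lowest for Aldh7a1 (34.9 CPM). DBA female 3, the DBA library with high forebrain markers, was highest for Gabra2 (203 CPM) and Tpm3-rs7 (35.4). DBA male 3 was highest for Th (1650 CPM) and Slc6a3 (2970), where the next DBA libraries had 178 and 336 CPM. DBA male 1 was highest for Gfap (107 CPM) and DBA male 5 was the 1 DBA library with a count of Trim12a (0.0418 CPM). In C57, male 3 was highest for Chrna2 (74.8 CPM) and Gfap (563), and male 1 lowest for Nat8f4 (8.84).

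The strain effect differed between the sexes, by the interaction test, for Gm2451 (-5.36 on the log2 scale, males minus females) and Gm49192 (-2.47). What sets these libraries or groups apart was not tested.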

How the results depend on the processing

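Counts of genes stayed within 1.5 times of 911 higher and 1031 lower under DESeq2 (1084 and 1303), voom (876 and 1057), RLE (909 and 1047), no filter (842 and 905), covariates (1047 and 1037), females alone (799 and 767), and without C57 male 5 and DBA male 4 (1003 and 1132). They moved in males alone (295 and 293, from 10 libraries) and, for higher genes, with all 40 libraries (1370, beside 1493 lower). Leaving out 1 library gave 777 to 1113 higher and 866 to 1158 lower, with 0 to 0 and 2 to 2 interaction genes. In no setting was a called gene called the other way. DESeq2 called 103 and 109 genes for the interaction, against 0 and 2; the cause was not tested. It gave no adjusted p for Hmga1b, Tpm3-rs7, Eno1b and Chrna2.

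Replicate numbers did not pair the libraries: same-numbered libraries of different groups correlated at -0.185 to 0.48, with 10 of 30 pairs over 0.1, and 6 of 20 libraries matched their own number best. With the replicate block, 880 genes were higher and 956 lower, the interaction was called for 0 and 2 genes, and Gja1, Pecam1, Flt1, Col1a1, Trem2, Chrna2, Cspg4 and Fkbp5 lost their calls.

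Of 85 called genes among those named by the rule, 13 lost their call in some fit without 1 library, and 2 (Alas2 and Trem2) without C57 male 5. Signs turned only for genes that were not called, with Psmb5 as the exception. In males alone, Cyfip2 was at -0.14, Kcnj9 at -0.15, Ahr at 0.0755, Tyrp1 at 0.87, Nr3c1 at -0.13, Th at 0.71, Slc18a2 at 1.06, Slc6a3 at 0.94 and Drd2 at 0.87; in females alone, Cap1 was at 0.27 and Fos at 0.39. With covariates, Ahr was at 0.0058, Tyrp1 at 0.85, Cap1 at 0.0933, Th at 0.31, Oprm1 at -0.0317, Slc18a2 at 0.20, Slc6a3 at 0.67 and Drd2 at 0.31. With the block, Tyrp1 was at 0.15 and Drd2 at 0.24, and Cap1 was at 0.0646 without both libraries. Over the fits without 1 library the ranges were -0.00199 to 0.11 for Ptprn2, -0.079 to 0.20 for Kcnj9, -0.26 to 0.0355 for Ahr, -0.70 to 0.62 for Tyrp1, -0.10 to 0.04 for Cap1, -0.10 to 0.33 for Oprm1, -2.46 to 0.0447 for Slc18a2 and -0.74 to 0.31 for Drd2. Summed with their copies, an alternative chosen after seeing the data, Psmb5 was at 0.0611, Zfp459 at 0.0205, Atp6v1g1 at 0.21, Zfand1 at 0.21, Magohb at 0.041, Mrps5 at 0.0277 and Map3k7 at 0.00441.

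Depth limits genes under about 1 CPM, where a library holds few reads, and in the simulation most 1.5-fold changes were missed. Alignment to a C57 genome was not varied.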
